A study of Homo sapiens with 12 samples.

Results

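The human genome holds far more pseudogenes of ribosomal proteins than genes for them, and those with the most ATAC-Seq reads in HEK293T cells are described here. Ribosomal proteins are the protein subunits of the ribosome, and their mRNAs are among the most abundant of the cell. Most of their pseudogenes are processed ones, that is, copies of a spliced mRNA that were written back into the genome by the machinery of LINE-1 elements. Such a copy lacks the introns and usually the promoter of its parent gene, so that its chromatin depends on the place where it landed. Some have become part of longer transcribed loci.

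The members were chosen by symbol, by a description as a pseudogene and by a sum of at least 60 counts over the 12 samples. Of 1087 ribosomal protein pseudogenes among the 52889 entries of the table, 10 met this rule. The choice rests on the level itself, so the levels below are a description and were not tested. The sum gives most weight to the most deeply sequenced samples. The 3 members with the fewest counts were RPL15P4 with 131, RPL7AP26 with 67 and RPL23AP53 with 65. The 3 pseudogenes just outside were RPL23AP87 and RPS7P15, each with 53, and RPSAP71 with 43.

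In ATAC-Seq, open chromatin is cut by the transposase Tn5 and tagged with sequencing adapters. The HEK293T cells, a line from human embryonic kidney, were studied in 4 groups of 3 biological replicates. Mock cells carried the empty vector pSBTet-GP. Cells of day 0 (d0) carried constitutive MLL-AF4, a fusion protein of the t(4;11) translocation of acute leukaemia. Cells of day 3 (d3) carried constitutive MLL-AF4 plus inducible AF4-MLL, the reciprocal fusion, which had been induced with 1 µg/ml doxycycline for 48 h. Cells of day 28 (d28) carried constitutive MLL-AF4 by their label, and by the methods of the study AF4-MLL had been off for 25 days. The fusions were brought in with Sleeping Beauty vectors into a kidney line, and the harvest day of the Mock cells is not given in the sources used here.

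Total counts per sample ranged from 353430 to 3539937. Mitochondrially encoded genes took 26.8% of the counts in Mock, 44.0% in d0, 39.4% in d3 and 65.5% in d28 (means, n = 3 each), so that the groups differed in usable depth. Outside these genes the samples held 257857 to 1116385 counts. The 5 HEK293T marker genes LIN28B, EYA1, PAX2, NEFM and GATA2 had 200 to 424 counts each. The 7 markers of blood, liver and muscle, which the line should lack, had 24 to 410 counts each, so that counts over a gene do not by themselves separate active from silent genes. This limit holds for every count below.

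The 10 pseudogenes held 1835 of the 8940 counts on all ribosomal protein pseudogenes, which is 20.5%. The median pseudogene had 5 counts in all 12 samples together, and 907 of the 1087 (83.4%) had 10 or fewer. The 1087 pseudogenes belong to 77 parent genes. RPL23A, a protein of the large subunit, has the most pseudogenes, 87, and 3 of these were members, RPL23AP82, RPL23AP7 and RPL23AP53, which held 48.8% of the counts of the family. RPSA, a protein of the small subunit that is also known as the laminin receptor, has 71, and its members RPSAP31 and RPSAP52 held 27.2%. RPL21 with 64, RPL7 with 60 and RPL12 with 44 pseudogenes had no member. The remaining members were the only ones of RPL32, RPL13, RPLP0, RPL15 and RPL7A.

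By the RefSeq annotation of GRCh38.p14 the members were of 2 kinds. Short copies of 634 to 1016 bp, close to the size of an mRNA, were RPL13P5, RPL15P4, RPL7AP26 and RPSAP31. The other 6 were spread over long loci of 15.9 to 69.0 kb. Of the 10 members 7 were annotated as transcribed pseudogenes, compared with 22 of the 1073 pseudogenes under the threshold that have a RefSeq interval (2.05%). Only 5 of these 1073 (0.466%) were longer than 10 kb, compared with 6 of the 10 members, and the median lengths were 562 bp and 16253 bp. A longer interval collects more reads, so length and the rule of 60 counts are not independent.

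**Figure D1:**
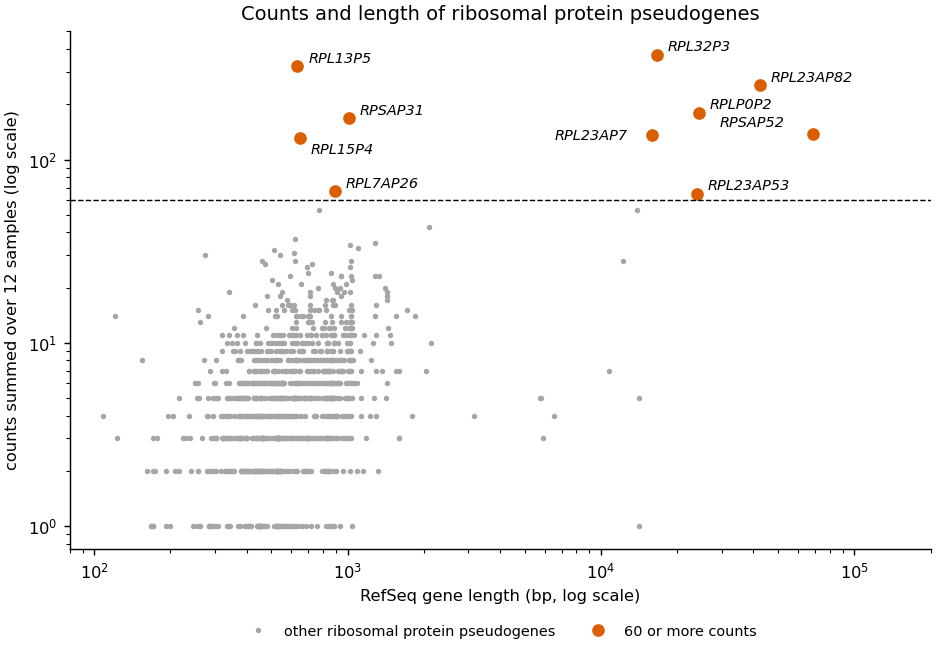
Counts summed over the 12 samples (log scale) against RefSeq gene length in bp (log scale) for the 1083 ribosomal protein pseudogenes with a RefSeq interval. Orange points are the 10 members and the dashed line is the threshold of 60 counts. The members fall into a group of 4 at or near 1 kb and a group of 6 above 10 kb.

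The short copies were the densest in reads. RPL13P5 (chromosome 12, chr12:6883981-6884614) had 509 counts per kb over the 12 samples, above the highest of the 80 cytosolic ribosomal protein genes, which had 350 and a median of 67.0. RPL15P4 (chr6:31528072-31528721) followed with 202, RPSAP31 (chr3:183887522-183888537) with 165 and RPL7AP26 (chr4:82490762-82491655) with 74.9 counts per kb. RPL32P3 (chr3:129382834-129399439) had 22.5 counts per kb, the most of the long loci. RPL23AP7 (chr2:113611239-113627138) had 8.55, RPLP0P2 (chr11:61615036-61639449) 7.37, RPL23AP82 (chr22:50757086-50799637) 5.97, and RPSAP52 (chr12:65758020-65826974) 2.001 counts per kb. RPL23AP53 on chromosome 8 had 2.71. The median over 18435 protein-coding genes was 5.16, and 8 of the 10 members lay above it. All 4 short copies lay above the median of the ribosomal protein genes, and all 6 long loci lay below it. The threshold on counts favours this split. A short copy can reach it only at a high density, whereas a long locus can reach it at a low one. The ribosomal protein genes and protein-coding genes were not chosen by counts, so these comparisons with the members describe the choice in part and were not tested. The interval that the authors counted is not given in the sources used here, and reads that reach over the ends of a short interval raise its density.

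Several members lay at or near other genes. RPL23AP82 contains the start of RABL2B, a small GTPase of the cilium, and RPL23AP7 ends 128 bp from the start of the paralog RABL2A. RPL15P4 lies 241 bp from the start of MCCD1, and RPSAP31 lies 2.64 kb from that of PARL, a protease of the inner mitochondrial membrane. Distances were taken only to the starts of 15842 protein-coding genes with a promoter window, so a nearer start can be missed. For RPSAP52 the nearest start found was that of LLPH at 304 kb, although this locus overlaps a protein-coding gene. A listed start within 5 kb was found for 4 of the 9 members with a known distance (44.4%). Among pseudogenes under the threshold it was found for 76 of 1023 (7.43%). The members were chosen by counts and are longer, so these shares do not compare like with like. RPSAP52 overlaps HMGA2, an architectural chromatin protein, RPL7AP26 lies in TMEM150C, and RPL23AP53 overlaps ZNF596. Overlap with a protein-coding gene was found for 4 of 10 members (40%) and for 372 of the others (34.7%). RPL32P3 contains the small nucleolar RNA gene SNORA7B, and RPL13P5 overlaps LOC105369632. How HTSeq treated a read in overlapping genes, and whether it used strand, is not given in the sources used here, so counts of overlapping genes are uncertain.

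The windows around the starts of RABL2A and RABL2B are shown because they lie in, or reach into, the members RPL23AP7 and RPL23AP82, and because they are near-identical copies. They are the 250 bases before and 50 after the start, from RefSeq (GRCh38.p14), 5′ to 3′ on the strand of the gene, RABL2A at chr2:113627016-113627315 (plus strand) and RABL2B at chr22:50783587-50783886 (minus strand). Capitals mark GGGCGG (GC box) and CGGAAG (core of ETS sites), which were searched on both strands and do not overlap here.
RABL2A: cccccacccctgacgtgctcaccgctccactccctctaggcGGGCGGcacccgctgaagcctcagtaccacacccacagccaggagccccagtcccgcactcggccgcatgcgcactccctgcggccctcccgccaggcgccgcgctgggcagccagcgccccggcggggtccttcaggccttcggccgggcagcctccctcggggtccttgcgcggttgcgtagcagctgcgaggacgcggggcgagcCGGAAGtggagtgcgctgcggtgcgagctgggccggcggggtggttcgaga
RABL2B: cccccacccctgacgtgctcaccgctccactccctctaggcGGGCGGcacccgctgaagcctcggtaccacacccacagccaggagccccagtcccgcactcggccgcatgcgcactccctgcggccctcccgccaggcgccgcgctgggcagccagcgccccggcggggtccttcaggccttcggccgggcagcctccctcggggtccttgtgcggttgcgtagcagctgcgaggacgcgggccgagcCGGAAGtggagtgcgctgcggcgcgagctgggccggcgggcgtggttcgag

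The windows were identical at 295 of 301 aligned positions (98.0%), with 4 mismatches and 2 gapped positions. All 300 bases of the RABL2B window lie in RPL23AP82, and 123 bases of the RABL2A window lie in RPL23AP7. Each window held 1 GGGCGG and 1 CGGAAG, and neither held the CCAAT box, the TATA box (TATAAA) or a YY1 core (AAGATGGC). Over 35116 promoter windows of the same length 45% held GGGCGG and 19.5% held CGGAAG, and over 79 windows of 64 cytosolic ribosomal protein genes the shares were 54.4% and 59.5%. Reads from stretches this similar can be placed at either locus, and the authors' treatment of them is not given in the sources used here. The counts of RPL23AP7 and RPL23AP82, and of short copies with their parent genes, are uncertain to this extent.

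The groups differ in more than the fusion proteins. Mock cells carried another vector, and by the labels only d3 had doxycycline. By the methods of the study, the AF4-MLL vector was brought in by a new transfection with blasticidin before d3. These differences and the fusion proteins cannot be told apart here. In the comparison of groups none of the 10 pseudogenes passed the test. This was edgeR's quasi-likelihood test over 27579 tested entries, with Benjamini-Hochberg adjusted p-values under 0.05 as the call. All 10 members passed the filter on low counts (a mean normalized count above 2 in any group), and 9 of them exceeded 2 in every group. Of the 1077 pseudogenes under the threshold 94 passed the filter. This contrast follows from the rule of 60 counts, which nearly ensures that a member passes. For d0 against Mock 0 of 10 were called, and 0.609% of all tested entries were. For d3 against Mock 0 were called beside 1.27% of all entries, and for d28 against Mock 0 beside 1.45%. For d3 against d0 0 were called beside 0.91%, for d28 against d0 0 beside 1.35%, and for d28 against d3 0 beside 0.37%. At these shares 0 of 10 is near the background and is no result about the members. The smallest adjusted p-value of any member in edgeR's test was 0.221, and DESeq2 called 0 in each comparison as well.

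At an unadjusted p-value under 0.05 in edgeR's test, 2 members passed for d0 against Mock (9.65% of all entries), 2 for d3 against Mock (11.3%), 3 for d28 against Mock (12.5%), 1 for d3 against d0 (11.4%), 1 for d28 against d0 (12.6%) and 0 for d28 against d3 (8.83%). In DESeq2 1 member passed for d0 against Mock, 1 for d28 against Mock and 0 in the other comparisons. The share of all entries at this p-value was not computed for DESeq2, so these counts have no background beside them. The signature rule used here, after that of the study, asks for an unadjusted p-value under 0.05, a log2 fold change beyond 1 and, in either group, normalized counts that average more than 2. It took in RPL7AP26 at each day against Mock (4.39%, 4.18% and 4.8% of all entries) and RPL15P4 for d28 against d0 (4.53%). RPL7AP26 had a Mock mean of 1.86 normalized counts, below the filter of 2, and passed the filter only through the groups where it was high, so its counts against Mock give no support to a change. No member had a fitted log2 fold change beyond 2, the stricter limit that the study also used. No member met the rule for d3 against d0 (3.68%) or d28 against d3 (3.05%). Comparisons that share the Mock or d0 samples are not independent of each other.

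The values are given as normalized counts, that is, counts scaled with edgeR's TMM factors to a common library size. They are not divided by length and compare samples, not genes. RPL32P3, a pseudogene of the large subunit protein L32, had 21.0, 24.5 and 33.2 in Mock, 26.1, 26.9 and 23.3 in d0, 38.5, 37.7 and 36.5 in d3 and 34.8, 24.6 and 33.5 in d28. Every d3 sample was above every sample of the other groups, and the d3 replicates were close together. The log2 fold change was 0.54 (SE 0.24, adjusted p = 0.340 in edgeR's test) for d3 against Mock and 0.56 (SE 0.23, adjusted p = 0.277) for d3 against d0. RPL32P3 was the only member with d3 above Mock without overlap (9.84% of all entries) and the only one with d3 above d0 (10% of all entries). For d28 against d3 the log2 fold change was -0.28 (SE 0.19), and it was -0.43 without d28 replicate 1 and -0.12 without d28 replicate 2.

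RPL13P5, a pseudogene of L13, had 44.9, 28.4 and 29.5 in Mock, 19.9, 19.9 and 29.8 in d0, 27.7, 29.1 and 26.9 in d3 and 22.7, 24.6 and 29.1 in d28. Mock replicate 1 was higher than all other samples, and the groups overlapped for d0, d3 and d28 against Mock. The log2 fold change for d0 against Mock was -0.56 (SE 0.27, adjusted p = 0.491 in edgeR's test), and it was -0.29 without Mock replicate 1. For d3 against Mock it was -0.30 (SE 0.24), and -0.03 without Mock replicate 1.

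RPL23AP82, the locus over the start of RABL2B, had 26.9, 20.6 and 14.8 in Mock, 23.6, 21.3 and 16.8 in d0, 16.9, 20.5 and 19.0 in d3 and 24.8, 21.1 and 26.2 in d28. It was the only member with all d28 samples above all d3 samples (6.79% of all entries), at a log2 fold change of 0.34 (SE 0.24, adjusted p = 0.734 in edgeR's test). RPL23AP7, which ends beside the start of RABL2A, had 7.48, 11.6 and 14.8 in Mock, 14.9, 14.2 and 9.06 in d0, 16.2, 11.1 and 8.72 in d3 and 6.86, 11.95 and 14.6 in d28. All 4 groups overlapped. RABL2A itself had log2 fold changes of -0.48, -0.49 and -0.45 at d0, d3 and d28 against Mock, and RABL2B had -0.53, -0.09 and -0.35, none of them called. RPL23AP53 had 4.49, 6.45 and 9.23 in Mock, 2.49, 2.84 and 5.18 in d0, 7.70, 5.14 and 4.75 in d3 and 7.39, 4.22 and 2.91 in d28, with all groups overlapping.

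RPLP0P2, a pseudogene of the stalk protein P0, had 18.0, 10.3 and 33.2 in Mock, 11.2, 18.4 and 16.8 in d0, 13.1, 18.8 and 18.2 in d3 and 13.7, 8.44 and 10.2 in d28. Mock replicate 3 was higher than every other sample, and the d28 samples overlapped with Mock. The log2 fold change for d28 against Mock was -0.78 (SE 0.34, adjusted p = 0.286 in edgeR's test), and it was -0.29 without Mock replicate 3. It was -0.45 (SE 0.34) for d28 against d0 and -0.57 (SE 0.30) for d28 against d3.

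RPSAP31, one of the pair of RPSA pseudogenes, had 16.5, 15.5 and 16.6 in Mock, 19.9, 9.93 and 11.7 in d0, 15.4, 15.4 and 13.5 in d3 and 12.7, 11.95 and 11.6 in d28. All d3 samples were below all Mock samples, the highest d3 sample by less than 0.1 normalized counts, and all d28 samples were below all Mock and all d3 samples. It was the only member with d3 below Mock (6.7% of all entries) and the only one with d28 below Mock (7.79%), and RPSAP31 and RPL32P3 were the members with d28 below d3 (7.51%). The log2 fold changes against Mock were -0.13 (SE 0.34) at d3 and -0.40 (SE 0.35) at d28, and the adjusted p-values in edgeR's test were 0.930 and 0.692. RPSAP52, the locus across HMGA2, had 16.5, 5.16 and 1.85 in Mock, 17.4, 7.09 and 7.77 in d0, 8.47, 13.7 and 12.7 in d3 and 13.2, 14.8 and 11.6 in d28. Its Mock samples spread more than its other groups, with a coefficient of variation of 98.0% compared with 11.8% in d28. The log2 fold change for d28 against Mock was 0.73 (SE 0.41), and HMGA2 itself had 0.34 (SE 0.20), neither of them called. For RPSAP52 the value was 1.81 without Mock replicate 1 (adjusted p = 0.108 in edgeR's test), 0.47 without Mock replicate 2 and 0.39 without Mock replicate 3, and it was -0.62 with library sizes in place of TMM factors.

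RPL15P4, the short copy beside MCCD1, had 8.98, 9.02 and 5.54 in Mock, 6.22, 7.09 and 7.77 in d0, 11.5, 14.6 and 7.13 in d3 and 16.4, 16.2 and 5.82 in d28. In d28 replicates 1 and 2 were higher than all other samples, whereas replicate 3 lay within the range of Mock and below d0. The log2 fold change was 1.01 (SE 0.40, adjusted p = 0.221 in edgeR's test) for d28 against d0 and 0.82 (SE 0.41, adjusted p = 0.382) for d28 against Mock. MCCD1 had 0.43 (SE 0.46) for d28 against Mock.

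RPL7AP26, which lies in TMEM150C, had 2.99, 2.58 and 0 in Mock, 8.71, 2.84 and 10.4 in d0, 2.31, 11.98 and 3.17 in d3 and 5.80, 8.44 and 2.91 in d28. The Mock values rest on 2, 2 and 0 counts, and 0 counts in Mock replicate 3 allows up to 5.54 normalized counts (3 counts, counting error only). The groups overlapped in each comparison with Mock. The ratio of pooled counts to Mock was 3.70 (95% counting interval 1.21 to 15.1) at d0, 2.80 (0.943 to 11.2) at d3 and 3.10 (1.07 to 12.3) at d28. The fitted log2 fold changes were 1.82 (SE 0.73), 1.43 (SE 0.72) and 1.57 (SE 0.70), and the adjusted p-values in edgeR's test were 0.371, 0.434 and 0.307. These tests hold only for an entry that the filter let in through d0, d3 and d28, not through Mock. Without d3 replicate 2 the value for d3 was 0.42. TMEM150C itself had -0.26, 0.24 and 0.17.

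**Figure D2:**
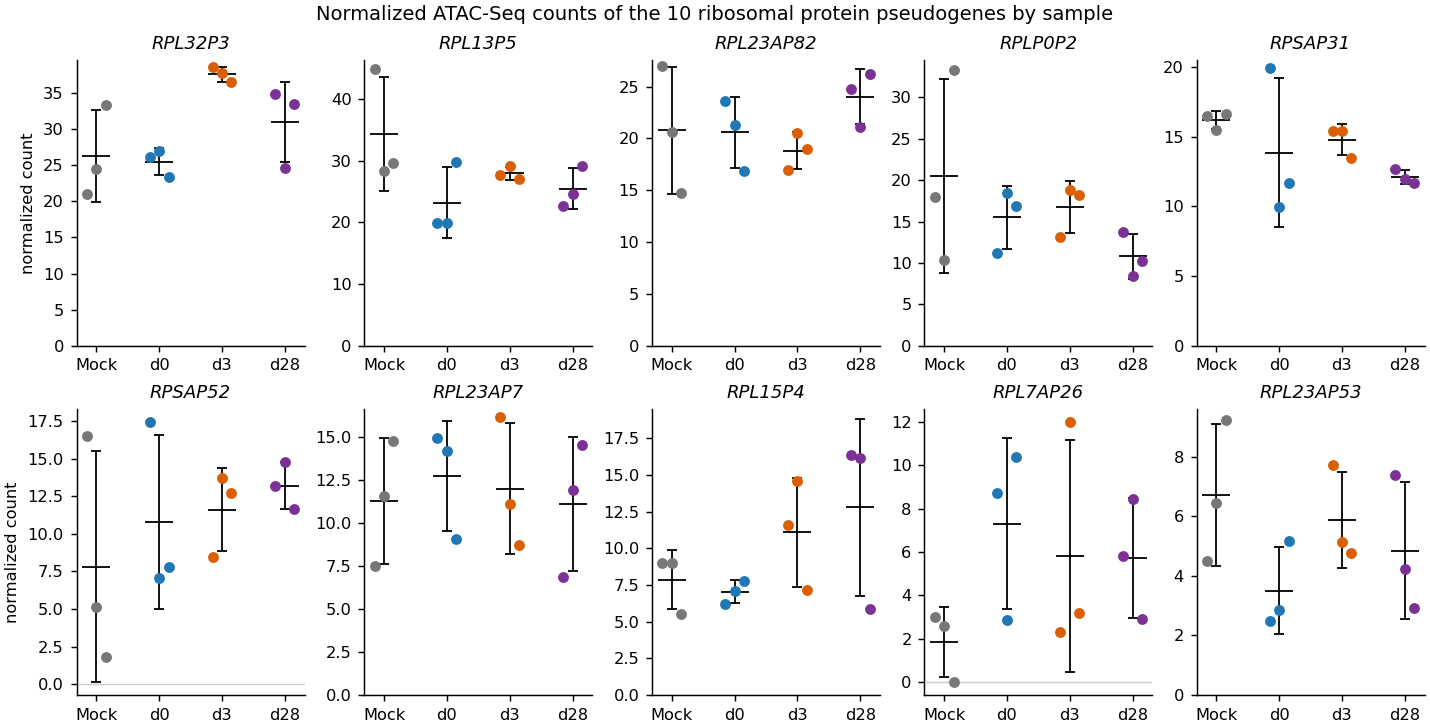
Normalized ATAC-Seq counts (vertical axes, each from 0) of the 10 pseudogenes in the 12 samples, by group. Points are single samples and bars give the mean and SD of 3 replicates. RPL32P3 in d3 lies above all other samples, and in most other panels the groups overlap.

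**Figure D3:**
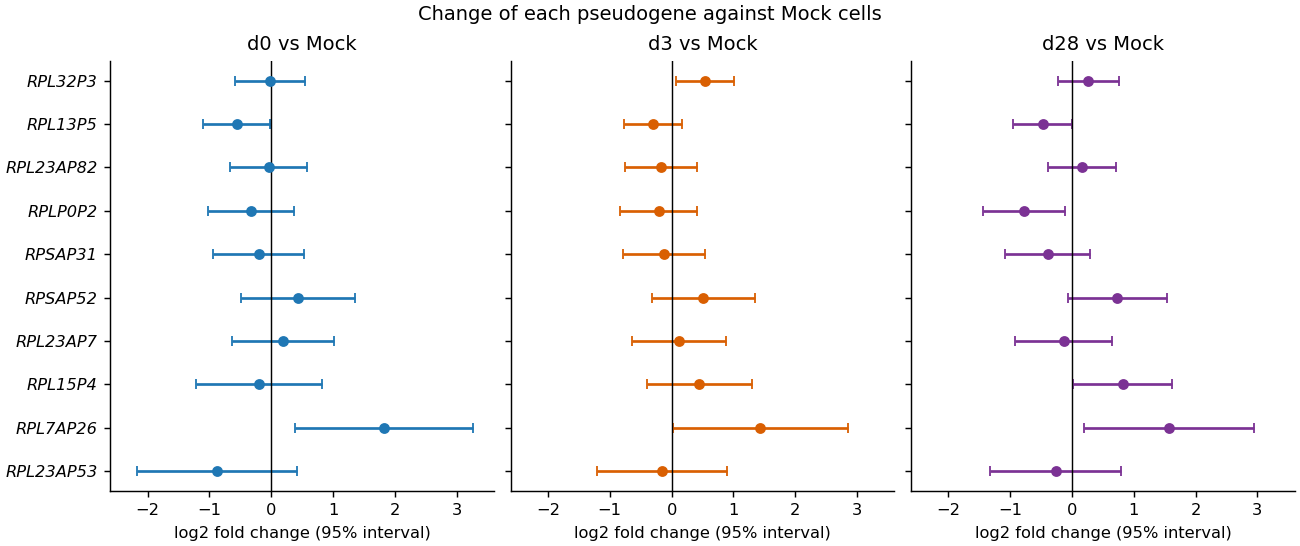
Fitted log2 fold changes of the 10 pseudogenes against Mock for d0, d3 and d28 (horizontal axes), with 95% intervals from the standard errors, not adjusted for the number of entries. Most intervals include 0, and RPL7AP26 has the widest ones and the highest values, up to 1.82.

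The spread of replicates sets the size of change that could be seen. The standard error of the log2 fold change ranged from 0.19 to 0.73 over the 10 members and 6 comparisons, with a median of 0.35. At this median a log2 fold change has to reach 0.68 for a 95% interval clear of 0, before adjustment. The median biological coefficient of variation in edgeR was 9.75% for the members and 10.5% for all tested entries. Within groups the spread of counts was that of sampling for most members, at a chi-square of 0.43 to 1.20 per degree of freedom for 7 of them. It was 1.74 for RPLP0P2, 2.004 for RPSAP52 and 2.41 for RPL7AP26. The change that could be seen thus differed between members with their standard errors, and the depth behind RPL7AP26 and RPL23AP53 was the lowest.

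As a group the members showed no common direction against Mock. For d0 against Mock 3 members had a log2 fold change above 0 (49.8% of all entries), and the median was -0.12 compared with -0.0017 over all tested entries. For d3 against Mock 5 were above 0 (52.1% of all entries), with a median of -0.0041 compared with 0.03. For d28 against Mock 5 were above 0 (52.4%), with a median of 0.02 compared with 0.03. For d3 against d0 7 were above 0 (51.7%) and the median was 0.10, compared with 0.02. For d28 against d0 6 were above 0 (53.1%) and the median was 0.14, compared with 0.04. For d28 against d3 4 were above 0 (50.6%) and the median was -0.15, compared with 0.01. No member had groups that did not overlap for d0 against Mock (7.37% of all entries higher and 7.07% lower) or for d28 against d0 (10.2% and 7.97%), and 0 had d28 above Mock (9.93%) or d3 below d0 (7.12%). The members took 0.0323% ± 0.0037 (SD, n = 3) of the counts outside mitochondrially encoded genes in Mock, 0.0282% ± 0.0021 in d0, 0.0322% ± 0.0026 in d3 and 0.0267% ± 0.00051 in d28. These shares were not tested, since they are a score over chosen members.

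The 80 cytosolic ribosomal protein genes, the parents of such copies, were read out of the same fit. For d3 against Mock their median log2 fold change was 0.34, and 6 rose and 0 fell by the adjusted p-value (1.27% of all entries were called). For d3 against d0 the median was 0.36 and 5 rose (0.91% of all entries were called). For d28 against d3 it was -0.32 and 2 fell (0.37% of all entries were called). In the comparisons without d3 the median was -0.03 for d0 against Mock, where 1 fell (0.609% of all entries were called). The medians were 0.02 for d28 against Mock and 0.06 for d28 against d0. In both edgeR called 0, beside 1.45% and 1.35% of all entries. At an unadjusted p-value under 0.05 in edgeR's test 12 and 11 passed, beside 12.5% and 12.6% of all entries. Among the parents of members RPL13 rose at d3, by 0.70 (SE 0.14, adjusted p = 0.000199 in edgeR's test) against Mock and by 0.56 (SE 0.13, adjusted p = 0.00674) against d0, whereas RPL13P5 had -0.30 and 0.26. RPL15 rose at d3 against Mock by 0.54 (SE 0.16, adjusted p = 0.0492 in edgeR's test), close to the limit of 0.05, and RPL15P4 had 0.45 (SE 0.43). The parents were not read out of the alternative fits. RPL32 had 0.53 (SE 0.26) and RPL32P3 0.54, neither called. RPL23A had 0.19, RPLP0 0.12, RPL7A 0.32 and RPSA -0.46 for d3 against Mock, none called. Differences between a pseudogene and its parent were not tested. Of 362 other pseudogenes with at least 60 counts, 2, 3 and 4 were called at d0, d3 and d28 against Mock, with medians of -0.05, -0.02 and -0.07. Their shares were 0.552%, 0.829% and 1.10%, compared with 0.609%, 1.27% and 1.45% of all entries.

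**Figure D4:**
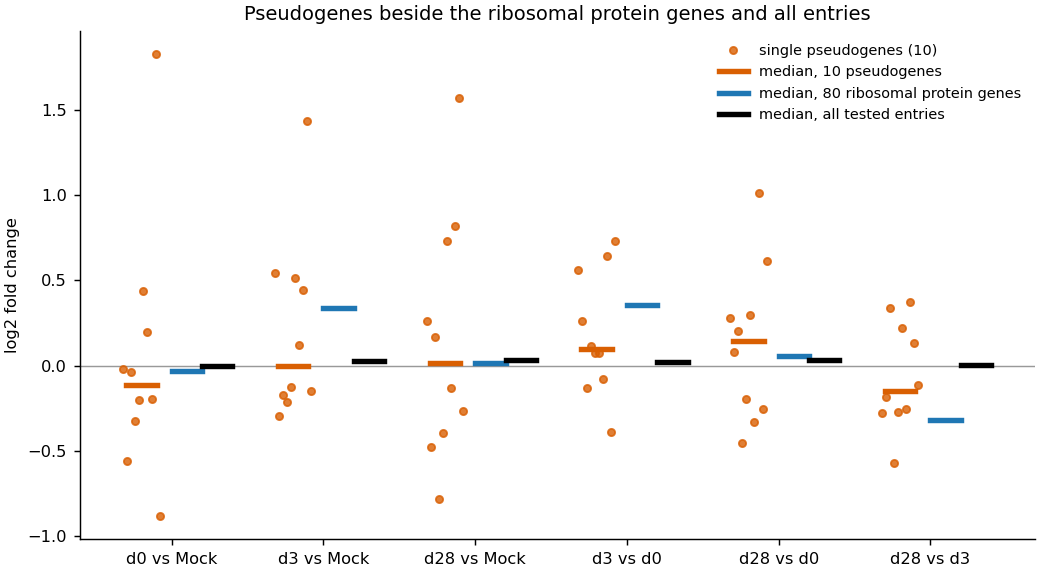
Fitted log2 fold changes (vertical axis) in the 6 comparisons. Orange points are the 10 pseudogenes and orange bars their median, blue bars are the median of the 80 cytosolic ribosomal protein genes, and black bars the median of all tested entries. At d3 against Mock and d0 the blue bars stand at 0.34 and 0.36, above the orange ones at -0.0041 and 0.10.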

How the data were processed

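ATAC-Seq of 12 HEK293T samples was analysed, 3 in each of the groups Mock, d0, d3 and d28 taken from the labels. The authors deposited raw integer counts of reads for each gene. The submitters' processing notes name bcl2fastq, Bowtie2, HTSeq and GRCh38, and the read shift, the removal of duplicates, the interval counted per gene, the strand and the handling of reads with several placements are not given in the sources used here. The labels' protocol mentions RNA purification, but the samples are labelled as genomic DNA.

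Tested were the 27579 of 52889 entries whose normalized counts averaged more than 2 in any group, with edgeR 4.0.16 in R 4.3.3, with TMM factors and the quasi-likelihood F test over all 12 samples. P-values were adjusted by Benjamini-Hochberg over all tested entries. A normalized count is a count multiplied by the mean effective library size and divided by that of the sample. The standard error is the log2 fold change divided by the root of F. The procedure was also run on simulated counts that had the same spread for all entries, which does not cover members of wider spread. Its outcome is not given here. Alternatives were DESeq2 1.42.0, other factors, filters, thresholds, fits to 6 samples, a replicate block and samples left out. TMM factors over all entries before the filter were added after the data were seen. Positions, lengths and promoter windows are from RefSeq GRCh38.p14 (1083 of 1087 pseudogenes matched by symbol), aligned with Biopython 1.88, and figures were drawn with matplotlib 3.10.9.

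The members and the lists were chosen with earlier results of these data known. Named are the 8 members with the most normalized counts, those passing the adjusted p-value, those with the smallest p-value in each direction of a comparison, those next to the threshold, the highest of the largest families, the 3 with the most counts per kb, and the parents of these. RPL23AP53 and the genes next to members were named in addition. Nothing in the labels says more of the replicates than that they are biological, and p-values measure the spread between these samples. No pair of replicates was closer than sampling noise (chi-square per degree of freedom 1.05 to 1.28). Counting intervals and floors cover counting error only, since reads of amplified libraries are not independent molecules. A further marker gene of the line is not reported here.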

Additional observations from a re-analysis of the deposited data

How the results depend on the processing

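The count of 0 called members held under every alternative except library sizes without factors, where 1 was called for d0 against Mock, 7 for d28 against Mock, 6 for d28 against d0 and 8 for d28 against d3. Of all entries 1411, 17855, 12262 and 16061 were called in these comparisons with library sizes alone. The counts of members are therefore no result about the members. That setting shifts the median over all entries to -0.48 for d0, -0.37 for d3 and -1.34 for d28 against Mock, -0.87 for d28 against d0 and -0.97 for d28 against d3, and it leaves the mitochondrial counts in the scale. Under it RPL15P4 and RPSAP52 for d28 against Mock had -0.55 and -0.62 and RPL23AP82 for d28 against d3 had -0.66, all reversed. Under this setting 2, 0, 7, 4 and 6 members met the signature rule for d0, d3 and d28 against Mock, d28 against d0 and d28 against d3. The share of all entries that met the signature rule was not computed for the alternatives. The signature count rests on 1 member, RPL7AP26 against Mock and RPL15P4 for d28 against d0. It was 0 at d0, d3 and d28 against Mock with a member threshold of 120 counts. That 0 was fixed by the threshold, since RPL7AP26 has 67 counts. The count was also 0 in these comparisons with filterByExpr, which kept only 8 members. With RLE factors or only the 6 samples compared it was 0 at d3 against Mock. With DESeq2 it was 0 at d3 and d28 against Mock and for d28 against d0. With the replicate block it was 0 for d28 against d0. With a threshold of 30 counts it was 2 for d28 against Mock and 1 for d28 against d3, and the median difference between members and all entries for d28 against d3 was 0.13.

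Leaving out single samples gave 0 called members in each comparison, and 0 to 2 in the signature for d0, d3 and d28 against Mock, 0 to 1 for d3 and d28 against d0 and 0 for d28 against d3. The median of members minus that of all entries ranged over these from -0.13 to -0.02 (d0 against Mock), -0.10 to 0.20 (d3 against Mock), -0.09 to 0.09 (d28 against Mock), 0.02 to 0.28 (d3 against d0), -0.01 to 0.21 (d28 against d0) and -0.23 to 0.0084 (d28 against d3). The shares of counts ranged from 0.0308 to 0.0343% (Mock), 0.0271 to 0.0292% (d0), 0.0307 to 0.0331% (d3) and 0.0265 to 0.0270% (d28). With all counts as the denominator they were 0.0236, 0.0158, 0.0194 and 0.00921%, with a threshold of 30 counts 0.0384, 0.0348, 0.0384 and 0.0332%, and with 120 counts 0.0260% in d0 and 0.0249% in d28. The cause of the other changes was not tested.

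Same-numbered samples had correlations of -0.15 to 0.08 over 8295 entries. Replicates differed by little more than sampling noise, so this check cannot decide whether the numbers pair the samples. The replicate block kept 0 called members in each comparison. Depth limits RPL7AP26 and RPL23AP53 most, with 67 and 65 counts in 12 samples.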
